A study of Mus musculus with 20 samples.

Results

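The 8 genes described here are linked to resistance of tumours to PARP inhibitors: the drug efflux pumps Abcb1a, Abcb1b and Abcg2, the genes Trp53bp1, Rif1, Mad2l2 and Dynll1 of the 53BP1 axis, and Ezh2. They are a list of gene names, looked up among 55406 genes in the count table, and all 8 passed the filter on low counts that left 18144 genes for testing. Trp53bp1 RNA was lower than in untreated tumours in all 3 combinations that contained olaparib, at log2 fold changes from -0.27 to -0.40, and by edgeR's quasi-likelihood test it was the 1 member that passed against untreated tumours, where 16.1%, 17.8% and 24.2% of all genes passed in these combinations. DESeq2 also called Rif1 in the full combination (adjusted p = 0.0313), where it called 4737 of 18107 genes. No pump passed by edgeR with all 20 libraries. DESeq2 called both Abcb1 genes in the comparison that pools the effect of olaparib (adjusted p = 0.0366 for Abcb1a and 0.0206 for Abcb1b). It called 1747 of 18107 genes there. Both Abcb1 genes were 25.3% and 32.5% higher with olaparib alone without passing the adjustment over all genes, and Abcg2 had lower means in all treated groups.

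PARP inhibitors block an enzyme that marks DNA breaks and trap it on DNA, which kills cells that cannot repair by homologous recombination, such as cells without Brca1. P-glycoprotein, encoded in the mouse by Abcb1a and Abcb1b, and the breast cancer resistance protein, encoded by Abcg2, are membrane pumps that use ATP to carry drugs out of cells, and olaparib is a substrate of P-glycoprotein. In cells without Brca1, 53BP1 (Trp53bp1) and its partners Rif1 and Mad2l2 (REV7) shield broken DNA ends from being trimmed, and loss of a member of this chain lets trimming and recombination resume. Ezh2, the methyltransferase of Polycomb repressive complex 2 (PRC2), also acts at stalled replication forks. These are mechanisms seen at the level of protein or of gene loss. RNA of bulk tumour reads neither.

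The RNA came from frozen tumour tissue of 20 female C57/BL6 mice, with 1 tumour assumed for each mouse. The injected cells, luciferase-expressing ID8 cells of genotype Trp53-/-Brca1-/-, derive from a mouse ovarian surface epithelial line and were given into the peritoneum. All groups, controls included, carried both deletions in the injected cells, and the immune and stromal cells of the host were read together with them. The groups were untreated control (n = 3), olaparib as the PARP inhibitor at 40 mg/kg per day by mouth (PARPi, n = 3), immune checkpoint blockade with 100 µg anti-CTLA-4 and 200 µg anti-PD-L1 (ICB, n = 3), both together (PARPi+ICB, n = 3), olaparib with 20 µg of antibody to VEGFA (PARPi+anti-VEGFA, n = 4) and all agents together (the full combination, n = 4). The age of the mice, the length of treatment, and whether the injected cells were 1 clone are not given in the sources used here. There was no group with anti-VEGFA alone, and no group was described as resistant, so the comparisons show RNA levels under treatment.

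Library totals ran from 26.9 to 34.7 M counts. Brca1, at 18.5 ± 0.972 CPM (the count scaled to library size, SD, n = 3) in controls, and Trp53, at 56.8 ± 1.96 CPM, were detected in all libraries, which checks no label, because host cells carry both genes and the deleted exons are not given. A set of 10 epithelial and mesothelial genes, among them Krt8, Krt18, Msln and Wt1, was present in every group, at a summed 1915 to 2819 CPM. Pancreatic acinar enzymes set 4 libraries apart, namely ICB replicate 3, PARPi+anti-VEGFA replicates 1 and 4, and full combination replicate 2, where the summed level of 9 such genes ran from 179 to 4457 CPM. In bulk tissue, fewer cells of a type and less RNA per cell cannot be told apart.

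The neighbouring Abcb1 genes are near copies, which matters for how their counts can be read. Abcb1a (ENSMUSG00000040584) lies at chr5:8660077-8748575 and Abcb1b (ENSMUSG00000028970) at chr5:8798147-8866315, both on the plus strand of GRCm38, 49571 bp apart. Their coding sequences, 3831 bases each, were 88.0% identical in an alignment, and the longest identical run was 338 bases. The 120 bases shown are from the reference transcripts, from base 1327 of the Abcb1a and base 1336 of the Abcb1b coding sequence. They hold the bases just before that run and its first part, which starts at base 1357 of Abcb1a and base 1366 of Abcb1b. Capitals mark the bases at which the genes differ, and no base differs after the last capital.
Abcb1a: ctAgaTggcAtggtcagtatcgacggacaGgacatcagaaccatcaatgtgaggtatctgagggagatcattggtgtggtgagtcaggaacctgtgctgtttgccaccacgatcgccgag
Abcb1b: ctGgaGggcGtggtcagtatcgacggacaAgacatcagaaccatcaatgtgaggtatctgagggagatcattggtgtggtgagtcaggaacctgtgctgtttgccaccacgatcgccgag
Of all stretches of 75 bases in the transcripts, 12.5% in Abcb1a and 8.13% in Abcb1b also occurred in another gene, 644 of them in each other. Reads inside such stretches cannot be assigned to 1 gene, and how the authors' counting treated them is not given in the sources used here. The values of this pair are therefore uncertain by reads that may have been left out or split. In Dynll1 the share was 0.805%, and in the other 5 members no stretch was shared. The search covered transcripts in the same sense alone. The overlap of Trp53bp1 with a gene on the opposite strand, given below, is not counted in it.

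The promoters of 2 members are shown because the data turn on them: Abcb1b, the pump gene with the larger difference under PARPi, and Trp53bp1, the gene that passed the test. Each is the 250 bases before the RefSeq start on GRCm38.p6, at chr5:8797897-8798146 on the plus strand and chr2:121271408-121271657 on the minus strand, and both RefSeq starts are those of the GENCODE annotation used. Capitals mark matches to GGGCGG (the GC box) and CCAAT on either strand.
Abcb1b: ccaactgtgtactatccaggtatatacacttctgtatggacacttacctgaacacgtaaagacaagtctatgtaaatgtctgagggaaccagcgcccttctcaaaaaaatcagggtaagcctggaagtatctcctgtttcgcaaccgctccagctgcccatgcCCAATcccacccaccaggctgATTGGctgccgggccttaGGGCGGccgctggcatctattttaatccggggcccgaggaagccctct
Trp53bp1: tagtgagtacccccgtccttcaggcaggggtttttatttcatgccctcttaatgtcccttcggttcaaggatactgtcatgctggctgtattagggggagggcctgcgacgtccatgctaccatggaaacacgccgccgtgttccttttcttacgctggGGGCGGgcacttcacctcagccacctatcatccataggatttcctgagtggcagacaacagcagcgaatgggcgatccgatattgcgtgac
The Abcb1b window held 1 GGGCGG and 2 CCAAT matches, and the Trp53bp1 window 1 GGGCGG match. Neither held TATAAA. Of 32851 RefSeq promoter windows of the same length, 32.7% held GGGCGG, 33.8% CCAAT and 12.4% TATAAA, so the matches are common ones.

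Abcb1a, the lesser of the P-glycoprotein genes here, stood at 7.65, 9.94 and 9.35 CPM in the controls, at 11.8, 11.8 and 10.1 CPM with PARPi and at 6.57, 10.4 and 9.32 CPM with ICB. It stood at 11.5, 9.76 and 10.2 CPM with PARPi+ICB, at 10.3, 9.33, 9.91 and 10.6 CPM with PARPi+anti-VEGFA, and at 10.2, 11.8, 10.6 and 10.1 CPM in the full combination. All PARPi and all full combination libraries were above the highest control, and the other groups overlapped the controls. The log2 fold change ± SE against control was 0.33 ± 0.14 with PARPi (unadjusted p = 0.0327, adjusted p = 0.384) and 0.25 ± 0.13 in the full combination (adjusted p = 0.184). Adjusted p-values here and below are from edgeR's quasi-likelihood test with Benjamini-Hochberg adjustment over all 18144 genes, and a gene passed at an adjusted p under 0.05.

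Abcb1b, the other P-glycoprotein gene, stood at 24.1, 27.6 and 28.2 CPM in the controls, at 32.9, 34.5 and 38.4 CPM with PARPi and at 18.98, 24.0 and 33.7 CPM with ICB. It stood at 32.8, 28.1 and 33.1 CPM with PARPi+ICB, at 34.3, 28.8, 31.4 and 39.4 CPM with PARPi+anti-VEGFA, and at 26.7, 31.9, 30.9 and 27.3 CPM in the full combination. The PARPi and PARPi+anti-VEGFA libraries were all above the highest control, while those of the full combination lay on both sides of it. ICB held both the lowest of the 20 values and, in the replicate with acinar RNA, one above all controls. The log2 fold change was 0.41 ± 0.16 with PARPi (unadjusted p = 0.0184, adjusted p = 0.313) and 0.33 ± 0.15 with PARPi+anti-VEGFA (adjusted p = 0.131).

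Each Abcb1 gene was above all controls in 12 of 17 treated libraries. A gap in at least 12 of 17 was met by 17.2% of the tested genes, so it is a common pattern against these 3 controls. The comparisons with control share the same 3 control libraries and are not independent of each other.

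The comparison that pools the effect of olaparib over tumours without and with ICB (PARPi against control and PARPi+ICB against ICB, averaged) drew on more libraries. Its log2 fold change was 0.29 ± 0.10 for Abcb1a (unadjusted p = 0.00831, adjusted p = 0.0888) and 0.35 ± 0.11 for Abcb1b (unadjusted p = 0.00551, adjusted p = 0.0710). None of the 8 members passed in this comparison by edgeR, where 5.1% of all genes did, and 5 members had an unadjusted p under 0.05, against 21.7% of all genes. Abcb1b passed without ICB replicate 3, at 0.48 (adjusted p = 0.00624), and without all 4 libraries with acinar RNA, at 0.48 (adjusted p = 0.00506). By the Wald test of DESeq2 the adjusted p was 0.0206 for Abcb1b and 0.0366 for Abcb1a, and 1747 of 18107 genes passed. The interaction of olaparib with ICB had an adjusted p of 0.992 for Abcb1b and 0.997 for Abcb1a.

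**Figure D1:**
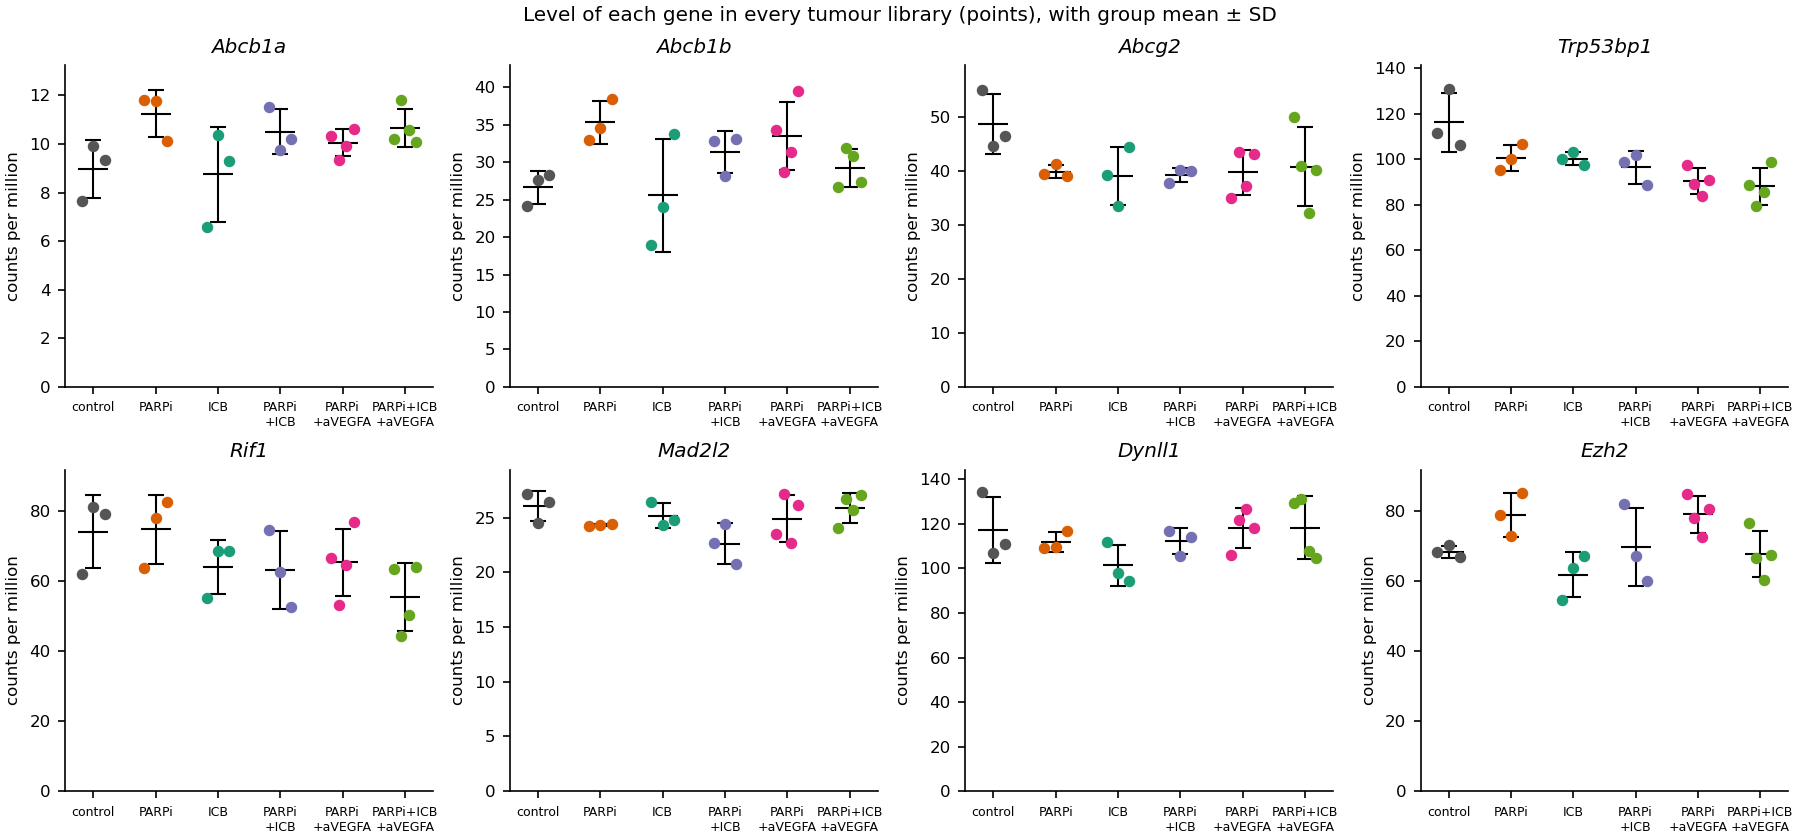
Level of each of the 8 genes in CPM in every library (points), by treatment group, with the group mean and SD (n = 3 or 4); the vertical axes start at 0. Abcb1a and Abcb1b lie above all controls in the 3 PARPi libraries, and Trp53bp1 lies below all controls in 16 of 17 treated libraries.

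The ratio of Abcb1b to Abcb1a counts averaged 3.02 ± 0.376 over the 20 libraries (SD), with a range from 2.32 to 3.79. In the controls it was 2.98 ± 0.194 (n = 3), and the group means ran from 2.73 ± 0.129 in the full combination to 3.32 ± 0.281 with PARPi+anti-VEGFA (n = 4 each). Two-sided exact permutation tests of the log2 ratio against control gave p from 0.114 to 1, adjusted over the 5 groups to 0.286 or more, where the smallest possible p was 0.1 for 3 against 3 libraries and 0.0571 for 4 against 3. These designs cannot reach an unadjusted p under 0.05. The libraries with PARPi+anti-VEGFA (3.08 to 3.72) lay above all those of the full combination (2.62 to 2.92), a difference that was not tested.

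**Figure D2:**
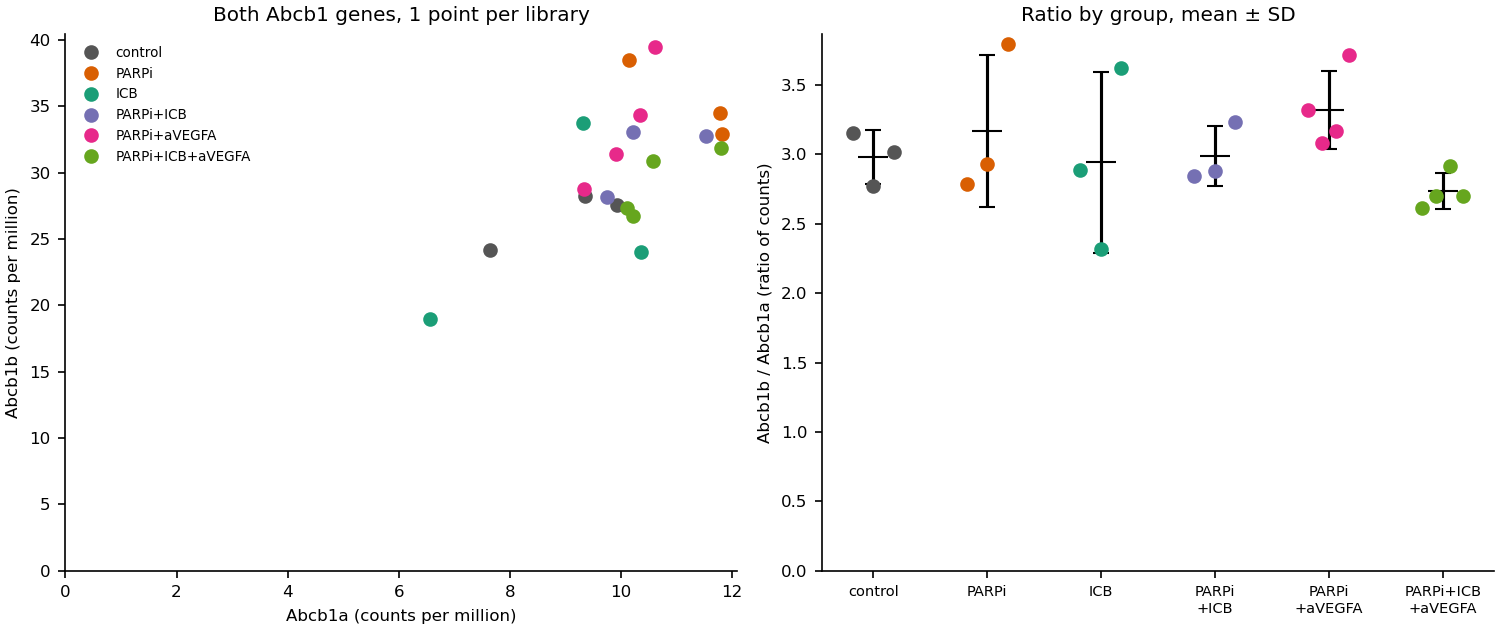
Left, Abcb1b against Abcb1a in CPM, 1 point per library, both axes from 0; right, the ratio of their counts by group with mean and SD (n = 3 or 4). The ratio lies between 2.32 and 3.79 in all 20 libraries; PARPi+anti-VEGFA lies at 3.08 to 3.72 and the full combination at 2.62 to 2.92.

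Abcg2, the gene of the breast cancer resistance protein (ENSMUSG00000029802, chr6:58584523-58695676, plus strand), had lower means in treated tumours. It stood at 55.0, 44.5 and 46.4 CPM in the controls, at 39.3, 41.2 and 39.0 CPM with PARPi and at 39.2, 33.6 and 44.4 CPM with ICB. It stood at 37.7, 40.05 and 40.0 CPM with PARPi+ICB, at 35.02, 43.4, 37.2 and 43.0 CPM with PARPi+anti-VEGFA, and at 49.9, 40.9, 32.1 and 40.1 CPM in the full combination. In 16 of 17 treated libraries the value was below all 3 controls, a gap that 3.67% of the tested genes showed, and the exception was replicate 1 of the full combination. The log2 fold changes ran from -0.32 ± 0.13 with ICB to -0.26 ± 0.12 in the full combination. Each had an unadjusted p under 0.05, and none passed the adjustment (lowest adjusted p = 0.102, with PARPi+anti-VEGFA). Of all genes, 11.4% had an unadjusted p under 0.05 with PARPi, 17.6% with ICB and 30.1% with PARPi+ICB. The share was 32.2% with PARPi+anti-VEGFA and 36.2% in the full combination. These comparisons share the same 3 controls. With each library left out in turn, the full combination gave -0.37 to -0.16 (adjusted p from 0.0283 to 0.448). The lowest adjusted p came without that replicate 1, the library that went against the fall. It was the 1 call in 14 alternative fits.

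Of 7 other ABC exporters 6 were tested. Abcc1 (MRP1), which exports glutathione conjugates and several drugs, was the member of this group that passed. It fell from 268 ± 19.9 CPM in controls (SD, n = 3) to 221 ± 17.6 with PARPi+anti-VEGFA and 213 ± 6.16 in the full combination (n = 4 each), at log2 -0.28 ± 0.08 (adjusted p = 0.0207) and -0.33 ± 0.08 (adjusted p = 0.00551). Among all genes 7.8% passed as lower with PARPi+anti-VEGFA and 11.5% in the full combination. With PARPi alone Abcc1 gave -0.08 ± 0.08 (adjusted p = 0.780). Of 5 regulators of drug-handling genes (Nr1i2, Nr1i3, Ahr, Arnt and Nfe2l2), 0 passed in each of the 5 comparisons with control by edgeR, and at most 1 had an unadjusted p under 0.05.

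Trp53bp1 encodes 53BP1, the scaffold that binds modified nucleosomes at breaks and recruits the other factors of end protection (ENSMUSG00000043909, chr2:121193281-121271407, minus strand). It stood at 111, 131 and 106 CPM in the controls, at 95.3, 99.9 and 107 CPM with PARPi and at 100.0, 103 and 97.5 CPM with ICB. It stood at 98.6, 102 and 88.4 CPM with PARPi+ICB, at 97.5, 89.1, 83.9 and 90.7 CPM with PARPi+anti-VEGFA, and at 88.6, 79.4, 85.4 and 98.9 CPM in the full combination. Every library of the 3 combinations was below the lowest control, a gap over 11 libraries that 6.43% of the tested genes showed. PARPi replicate 3 was the 1 treated library that reached into the range of the controls.

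Trp53bp1 fell in the 3 combinations. It fell by 16.99% with PARPi+ICB (log2 -0.27 ± 0.09, adjusted p = 0.0407), fell by 22.2% with PARPi+anti-VEGFA (-0.36 ± 0.08, adjusted p = 0.0053) and fell by 24.1% in the full combination (-0.40 ± 0.08, adjusted p = 0.00201). It was 1 of 8 members that passed in each of these comparisons, in which 16.1%, 17.8% and 24.2% of all genes passed, and 6.52%, 7.8% and 11.5% passed as lower. With PARPi alone the log2 fold change was -0.21 ± 0.09 (unadjusted p = 0.0277, adjusted p = 0.362), and with ICB alone -0.21 ± 0.09 (adjusted p = 0.205). The test across all 6 groups also called it, with an adjusted p of 0.0155, where 20.7% of genes were called.

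The difference between the combinations and PARPi alone did not pass: adding anti-VEGFA to PARPi gave log2 -0.16 ± 0.08 (adjusted p = 0.371) and adding ICB to PARPi gave -0.06 ± 0.09 (adjusted p = 0.776). In the alternative analyses Trp53bp1 passed in all 14 fits for PARPi+anti-VEGFA and in all 14 for the full combination, but in 6 of 13 for PARPi+ICB, where the adjusted p ran from 0.0284 to 0.220. For PARPi+ICB it was lost without control replicate 1 (adjusted p = 0.0569) or 2 (0.218) and without PARPi+ICB replicate 1 (0.0681) or 3 (0.220), and the test across groups was lost without control replicate 2 (0.0727).

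Several other measures also differed from control in the combinations. Their part in the fall of Trp53bp1 was not tested. Exons of Trp53bp1 overlap those of Tubgcp4, a gamma-tubulin complex gene on the opposite strand, over 2130 bp, and the strand setting of the counting is not given in the sources used here. Tubgcp4 stood at 90.2 ± 5.11 CPM in controls, 78.6 ± 7.25 with PARPi+ICB (log2 -0.20 ± 0.07, adjusted p = 0.0466), 84.6 ± 3.28 with PARPi+anti-VEGFA (-0.09 ± 0.06, adjusted p = 0.323) and 79.7 ± 4.12 in the full combination (-0.18 ± 0.06, adjusted p = 0.0425).

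Trp53bp1 and Rif1 are among the genes with the most exonic sequence, 14164 and 10504 bp. Over 1317 tested genes with at least 10000 bp of exon and a mean of at least 1 CPM, a group chosen after the data were seen, the median log2 fold change was -0.11 with PARPi+ICB, -0.11 with PARPi+anti-VEGFA and -0.18 in the full combination. The share that passed as lower was 13.7%, 16.9% and 34.5% of these genes, against 7.12%, 8.39% and 11.6% of 13305 genes with less exon. Trp53bp1 lay below the median of the long genes in each.

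**Figure D3:**
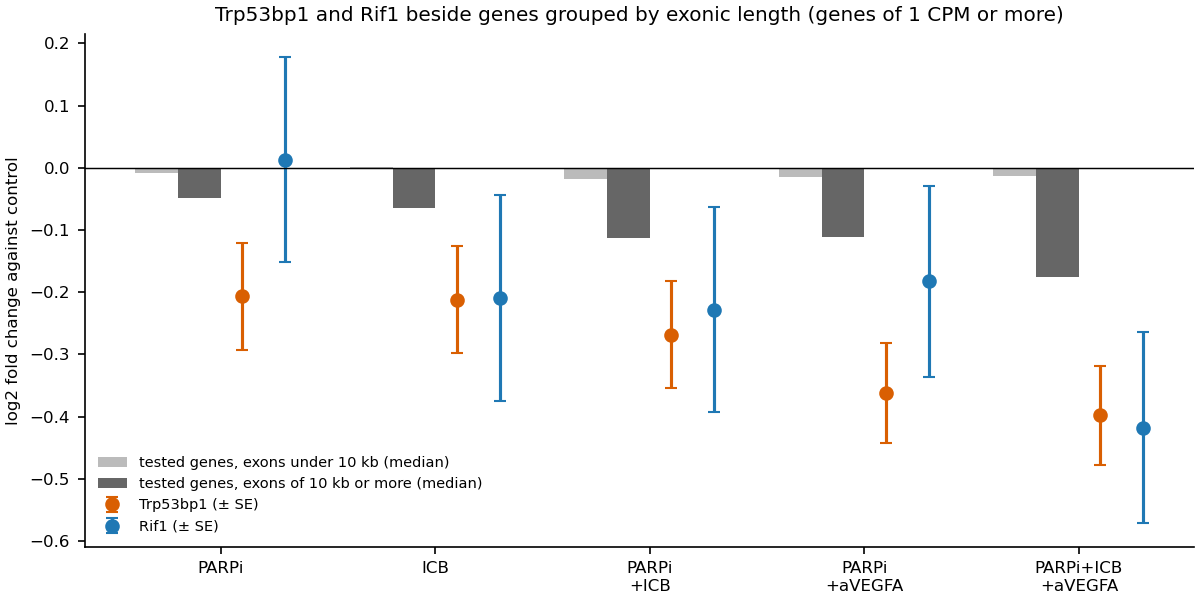
Log2 fold change against control for Trp53bp1 and Rif1 (points, ± SE) beside the median of tested genes of at least 1 CPM with exons under 10 kb (light bars) and of 10 kb or more (dark bars, 1317 genes), by treatment. The dark bars lie below 0 in all 5 treatments and reach -0.18 in the full combination, and Trp53bp1 lies below them in each.

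Cell and library markers also differed. All 9 T cell genes (Cd3d, Cd3e, Cd8a, Cd4 and others) were higher in each of the 3 combinations, and their summed level was 50.9 to 68.1 CPM in controls. It was 106 to 184 CPM with PARPi+ICB, 100.2 to 160.2 CPM with PARPi+anti-VEGFA, and between 138 and 217 CPM in the full combination. Of 9 macrophage genes 8, 7 and 8 were higher in these groups. Of 10 epithelial and mesothelial genes 5 were lower and 2 higher in each, and their summed level was 2432 to 2819 CPM in controls against 1915 to 2266 CPM in the 3 combinations. Among all genes 9.58%, 9.99% and 12.6% passed as higher in these combinations, and 6.52%, 7.8% and 11.5% passed as lower. The counts of Rn7sk, Lars2 and Mir6236, used as a sign of library quality, summed to 150.4 to 153.7 CPM in controls. It was 61.6 to 81.9 CPM with PARPi+ICB. The same sum was 46.5 to 62.3 CPM with PARPi+anti-VEGFA and between 55.5 and 153 CPM in the full combination. These sums differed in the single treatments too, where Trp53bp1 was at log2 -0.21 ± 0.09 with PARPi and -0.21 ± 0.09 with ICB and did not pass. The quality sum was 67.1 to 126.7 CPM with PARPi and 60.6 to 79.7 CPM with ICB. The T cell sum was 79.6 to 105.5 CPM with PARPi and 85.2 to 111.2 CPM with ICB.

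Rif1, the factor that 53BP1 recruits and through which it blocks end trimming (ENSMUSG00000036202, chr2:52072832-52122383, plus strand), stood at 62.1, 81.3 and 79.2 CPM in the controls, at 63.9, 78.1 and 82.7 CPM with PARPi and at 55.2, 68.5 and 68.8 CPM with ICB. It stood at 74.8, 62.7 and 52.6 CPM with PARPi+ICB, at 66.8, 53.3, 64.6 and 76.9 CPM with PARPi+anti-VEGFA, and at 63.5, 44.3, 50.3 and 64.0 CPM in the full combination. All treated groups overlapped the controls, among which replicate 1 was low. The largest difference was in the full combination, at log2 -0.42 ± 0.15 (unadjusted p = 0.0141, adjusted p = 0.0560), and it did not pass. It passed by DESeq2 (adjusted p = 0.0313), without control replicate 1 (0.0357), and without full combination replicate 1 (0.0412) or 4 (0.0394). DESeq2 called 4737 of 18107 genes in that comparison. With PARPi alone the difference was 0.01 ± 0.16 (adjusted p = 0.989).

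Mad2l2 encodes REV7, which links Rif1 to the shieldin complex and is also a subunit of a translesion DNA polymerase (ENSMUSG00000029003, chr4:148130384-148145699, plus strand). It varied the least over the 20 libraries among the 8 genes, from 20.7 to 27.2 CPM. The controls stood at 27.2, 24.5 and 26.4 CPM, PARPi at 24.3, 24.3 and 24.4 CPM, and PARPi+ICB at 22.7, 24.4 and 20.7 CPM. Both of these treated groups lay below all controls, though the highest PARPi library and the lowest control were almost level. The log2 fold change was -0.20 ± 0.08 with PARPi+ICB (unadjusted p = 0.0215, adjusted p = 0.0955) and -0.10 ± 0.08 with PARPi (adjusted p = 0.691). In the other 3 groups it ran from 22.6 to 27.2 CPM and overlapped the controls.

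Dynll1 encodes the dynein light chain LC8, which binds many partners, 53BP1 among them, and restrains end trimming (ENSMUSG00000009013, chr5:115297110-115300999, minus strand). The controls stood at 134, 107 and 111 CPM, and PARPi at 109, 110 and 117 CPM. ICB stood at 112, 98.1 and 94.2 CPM, and the 3 combinations ran from 105 to 131 CPM. All groups overlapped the controls, of which replicate 1 was the highest of all 20 libraries. The log2 fold changes ran from -0.21 ± 0.10 with ICB (unadjusted p = 0.0507, adjusted p = 0.286) to 0.01 ± 0.09 in the full combination, and no comparison had an unadjusted p under 0.05. Of 8 other dynein and dynactin genes, Dync1li2, a light intermediate chain, passed in the full combination, where 24.2% of all genes did. It was at 149 ± 10.5 CPM against 167 ± 5.45 in controls (log2 -0.16 ± 0.06, adjusted p = 0.0477). No call remained there without the 4 libraries with acinar RNA, when 1 of the 8 passed with PARPi+anti-VEGFA.

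The wider end-protection chain was read from 14 genes, of which 13 were matched and tested: shieldin and CST subunits, the factors that mark chromatin for 53BP1, and regulators of Dynll1 and Mad2l2. By edgeR 0 of 13 passed with PARPi alone, where 1 had an unadjusted p under 0.05 and 0.0661% of all genes passed. With PARPi+ICB 2 of 13 fell, Ctc1 (50.2 ± 0.756 CPM against 59.4 ± 2.88 in controls, log2 -0.24 ± 0.07, adjusted p = 0.0181), of the CST complex that fills in trimmed ends, and Shld2 (11.2 ± 0.673 against 13.7 ± 1.36 CPM, -0.29 ± 0.09, adjusted p = 0.0348), a shieldin subunit. Ctc1 alone of the 13 fell with PARPi+anti-VEGFA (-0.20 ± 0.06, adjusted p = 0.0297) and in the full combination (-0.17 ± 0.06, adjusted p = 0.0468), the former lost without the libraries with acinar RNA. Among all genes 6.52%, 7.8% and 11.5% passed as lower with PARPi+ICB, with PARPi+anti-VEGFA and in the full combination. The list's median log2 fold change was -0.10, -0.0025 and -0.12 in the 3 combinations, beside -0.02, -0.02 and -0.02 over all genes. Mdc1, which recruits the ubiquitin ligases upstream of 53BP1, was called in the test across groups (adjusted p = 0.0449), with means from 114 ± 10.4 CPM in the full combination to 141 ± 12.1 with PARPi+anti-VEGFA, and not without the libraries with acinar RNA.

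Of 8 end-trimming genes, the opposing machinery, 1 passed as higher with PARPi+anti-VEGFA and 1 as lower in the full combination. Among all genes 9.99% passed as higher in the former and 11.5% as lower in the latter. Dna2, a nuclease and helicase of long-range trimming, rose from 10.5 ± 0.22 CPM in controls to 13.8 ± 1.01 with PARPi+anti-VEGFA (log2 0.40 ± 0.10, adjusted p = 0.0104) and passed in the pooled olaparib comparison (0.27 ± 0.07, adjusted p = 0.0461). With PARPi alone it was at 13.0 ± 0.71 CPM (0.31 ± 0.10, adjusted p = 0.246). Mre11a, the nuclease that starts trimming, passed as lower in the full combination, at 48.5 ± 4.27 CPM against 57.5 ± 1.93, and is named because it was the 1 call there, after its value was seen. Without the libraries with acinar RNA no end-trimming gene passed in these 3 comparisons.

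**Figure D4:**
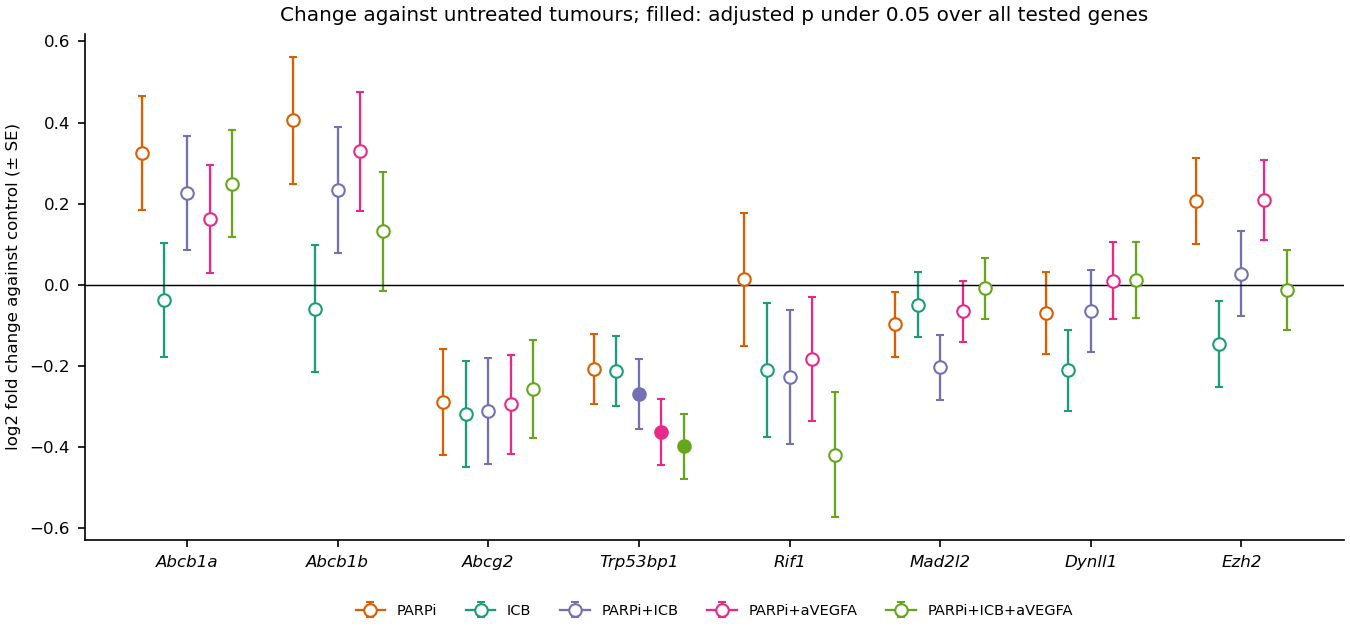
Log2 fold change against control (± SE) of the 8 genes in the 5 treatments, from edgeR's fit over all 20 libraries; filled symbols mark an adjusted p under 0.05 over all tested genes. The 3 filled symbols are Trp53bp1 in PARPi+ICB, PARPi+anti-VEGFA and the full combination, at -0.27, -0.36 and -0.40, and all 5 treatments share the same 3 controls.

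Ezh2, the catalytic subunit of PRC2 that methylates histone H3 and is abundant in dividing cells (ENSMUSG00000029687, chr6:47530139-47595341, minus strand), stood at 68.2, 70.2 and 66.8 CPM in the controls, at 78.9, 72.7 and 85.1 CPM with PARPi and at 54.7, 63.7 and 67.1 CPM with ICB. It stood at 81.9, 67.2 and 60.03 CPM with PARPi+ICB, at 84.9, 78.1, 72.5 and 80.5 CPM with PARPi+anti-VEGFA, and at 76.5, 66.7, 60.4 and 67.5 CPM in the full combination. All libraries of PARPi and of PARPi+anti-VEGFA were above the highest control, and the 3 groups that received ICB overlapped the controls. The log2 fold change was 0.21 ± 0.11 with PARPi (adjusted p = 0.478) and 0.21 ± 0.10 with PARPi+anti-VEGFA (adjusted p = 0.154). Adding ICB to PARPi+anti-VEGFA gave -0.22 ± 0.09 (unadjusted p = 0.0261, adjusted p = 0.330).

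The test across all groups gave an adjusted p of 0.0689 for Ezh2, and 0.0150 by the likelihood ratio test of DESeq2. It passed by edgeR without PARPi+ICB replicate 1 (0.0190) or 3 (0.0444) and without full combination replicate 1 (0.0421). The summed level of 15 proliferation genes (Mki67, Top2a, Cdk1 and others) lay in a similar order of groups, and its part in the level of Ezh2 was not tested. It was 1258 to 1284 CPM in controls, 1465 to 1499 CPM with PARPi and 1456 to 1594 CPM with PARPi+anti-VEGFA. In the groups given ICB it was 794 to 1219 CPM (ICB), 1099 to 1441 CPM (PARPi+ICB) and 1001 to 1450 CPM (full combination).

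Of 11 other genes, namely core and accessory genes of PRC2 and the opposing demethylase Kdm6a, 3 fell with PARPi+ICB, 3 with PARPi+anti-VEGFA and 4 in the full combination, and 0 rose. Of all genes tested, 6.52%, 7.8% and 11.5% fell in these comparisons. Ezh1, the alternative catalytic subunit, fell from 145 ± 5.28 CPM in controls to 129 ± 1.38, 121 ± 4.91 and 123 ± 5.96 (log2 -0.16 ± 0.05, -0.25 ± 0.05 and -0.24 ± 0.05, adjusted p = 0.0293, 0.00168 and 0.00157). Rbbp4, a histone-binding subunit, and Mtf2, a subunit that guides the complex to CpG islands, also fell in all 3, and Jarid2, a DNA-binding cofactor, in the full combination (47.6 ± 2.67 against 54.3 ± 2.27 CPM). The median over the 11 genes was -0.06, -0.07 and -0.10. Without the libraries with acinar RNA 2 of the 11 passed in each of the 3 combinations. With PARPi alone 0 of 11 passed by edgeR, and 2 had an unadjusted p under 0.05.

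Further genes were tied to the drug's target and to replication forks. With PARPi+ICB, PARPi+anti-VEGFA and the full combination, 1, 1 and 2 of 8 genes of poly(ADP-ribose) metabolism passed. For 9 fork remodelling genes the counts were 0, 0 and 1. All these calls were lower, as were 6.52%, 7.8% and 11.5% of all genes. Of 8 genes of poly(ADP-ribose) metabolism, 0 passed with PARPi alone. Chd1l, a remodeller that binds poly(ADP-ribose), fell in all 3 combinations, from 37.1 ± 0.955 CPM to 30.96 ± 1.87, 32.2 ± 1.67 and 31.3 ± 2.27, and Lig3, a DNA ligase of break repair, fell in the full combination (53.002 ± 3.19 against 60.6 ± 2.12 CPM, adjusted p = 0.0355). Parp1, the target of olaparib, was at 281 ± 14.04 CPM in controls and 287 ± 21.4 with PARPi (adjusted p = 0.926). Of 9 fork remodelling genes, Kmt2c, a histone methyltransferase, passed in the full combination (145 ± 18.8 against 189 ± 26.01 CPM, adjusted p = 0.0457). Without the libraries with acinar RNA, 0 genes of either list passed in the full combination, and 0 of poly(ADP-ribose) metabolism with PARPi+anti-VEGFA, while 1 fork remodelling gene passed with PARPi+ICB and 1 with PARPi+anti-VEGFA.

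As a group, 1 of the 8 members passed in each combination, as lower. Among all genes 16.1%, 17.8% and 24.2% passed there, and 6.52%, 7.8% and 11.5% passed as lower. With 8 genes, 1 call is near these shares and shows no trait of the members. By edgeR 0 passed with PARPi, where 0.0661% of genes did, and 0 with ICB, where 2.2% did. At an unadjusted p under 0.05 there were 4 members with PARPi, against 11.4% of genes, and 2 with ICB, against 17.6%. Members whose libraries did not overlap the controls numbered 5 with PARPi, 2 with ICB, 3 with PARPi+ICB, 4 with PARPi+anti-VEGFA and 2 in the full combination, beside 19.8%, 22.1%, 34.7%, 27.1% and 29.6% of the tested genes. With PARPi the 5 were Abcb1a, Abcb1b and Ezh2 above and Abcg2 and Mad2l2 below the controls. The median log2 fold change of the members was -0.03 with PARPi, -0.18 with ICB, -0.13 with PARPi+ICB, -0.03 with PARPi+anti-VEGFA and -0.01 in the full combination. Neither interaction, of olaparib with ICB or of ICB with anti-VEGFA, gave a member with an unadjusted p under 0.05, which 5.21% and 6.55% of genes had. For PARPi+ICB against ICB 0 members passed, where 0.871% of genes did.

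Apart from the count ratio of Abcb1b to Abcb1a, levels were compared between genes per length. Exon length merges the exons of all annotated transcripts of a gene, so it can exceed that of the RNA present. CPM per kilobase of exon in controls (SD, n = 3) was highest for Dynll1, at 30.2 ± 3.78, followed by Ezh2 at 10.2 ± 0.253, Mad2l2 at 9.92 ± 0.521, Trp53bp1 at 8.20 ± 0.909, Rif1 at 7.06 ± 1.00, Abcg2 at 5.97 ± 0.683, Abcb1b at 3.33 ± 0.275 and Abcb1a at 1.64 ± 0.217. Neighbours in this order that overlapped in the controls were Ezh2 with Mad2l2, Trp53bp1 with Rif1, and Rif1 with Abcg2. Dynll1 was above Ezh2, and Abcb1b above Abcb1a, in 20 of 20 libraries. Abcb1b exceeded Abcb1a by a median 2.00 times per kilobase.

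The deposited RPKM values give another order, because their length is not that of exons. For 99.8% of 11675 genes whose mean count was 100 or more the length that they imply was within 5% of the whole genomic span, introns included, and for 2.12% it was within 5% of the exon length. Abcb1a spans 88499 bp with 5480 bp of exon, while the merged exons of Dynll1 cover all of its 3890 bp, so the deposited values place Abcb1a at 0.103 and Dynll1 at 30.5 RPKM in controls. Fold changes from counts do not use this length, but differences of log2(RPKM + 1) shrink where RPKM is low: Abcb1a with PARPi differed from control by 0.0337 on that scale and by 0.33 from counts.

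**Figure D5:**
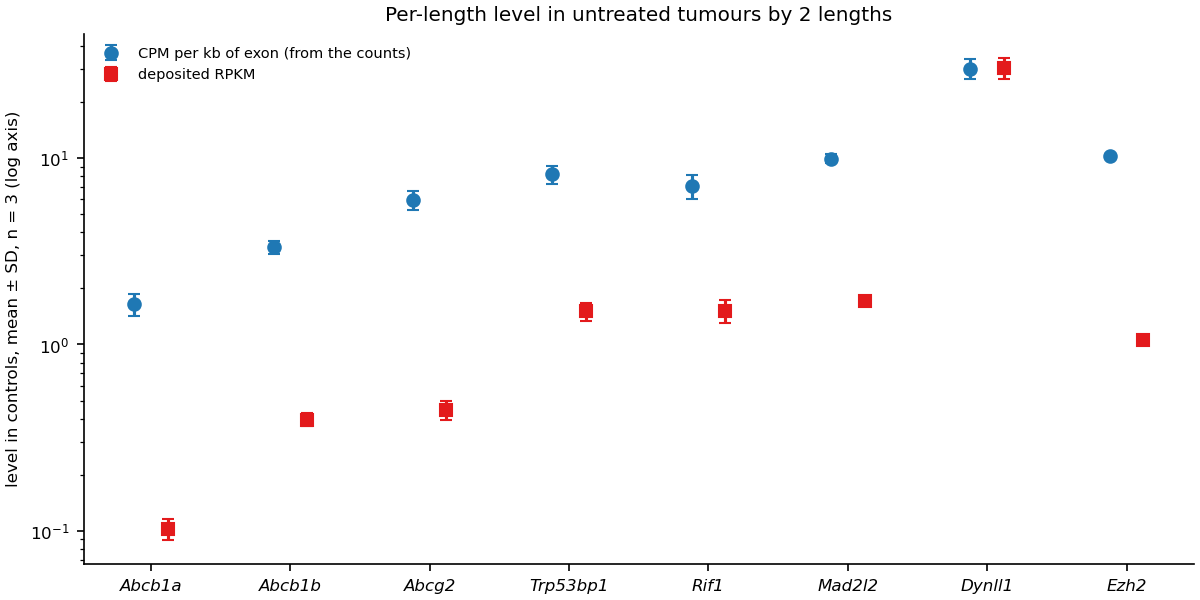
Level of each gene per length in the 3 controls (mean ± SD, log axis), as CPM per kilobase of exon (circles) and as deposited RPKM (squares). Dynll1, whose merged exons cover its whole span, has nearly the same value on both scales, about 30, and Abcb1a lies at 1.64 on one and 0.103 on the other.

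Over the 20 libraries, log2 CPM of 28 pairs of members was compared, pooling all treatments. The permutations moved libraries freely between groups, so differences between groups enter their p-values. How common such r is among pairs of other genes was not computed. By Pearson's r 3 pairs passed the adjustment: Abcb1a with Abcb1b (r = 0.71, permutation p = 0.00086, adjusted p = 0.0196), Trp53bp1 with Rif1 (r = 0.66, permutation p = 0.0014, adjusted p = 0.0196) and Abcb1b with Ezh2 (r = 0.63, permutation p = 0.00234, adjusted p = 0.0218). Spearman's rho was 0.47, 0.57 and 0.51 (permutation p = 0.0380, 0.00891 and 0.0229), and 0 pairs passed by it after adjustment. Without the 2 libraries farthest from the median of the first gene, r was 0.32, 0.50 and 0.41. Leaving out the extremes narrows the range, which by itself lowers r. The drop therefore cannot show how far a relation rests on those libraries. Deviations from group means gave r = 0.60, 0.58 and 0.32.

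The genes with the most similar profiles over the 20 libraries, out of 13192 with at least 1 CPM, are given as a description of libraries that share depth and tissue makeup. For Trp53bp1 they were Arhgap42, Dock5 and Usp53 (r = 0.94, 0.94 and 0.93), with 288 genes at r of 0.8 or more. For Rif1 they were Cep295, Btaf1 and Gabpb2 (r = 0.96 each), with 327 such genes, and for Ezh2 Topbp1, Kif2c and Ckap2l (r = 0.92, 0.91 and 0.91), with 114. The other 5 members had at most 9 genes at that level. Their closest were Tube1 for Abcb1a (r = 0.75), Cdca4 for Abcb1b (0.80), Anxa2 for Abcg2 (0.88), Trpm4 for Mad2l2 (0.77) and Sec11a for Dynll1 (0.85). The profiles of Trp53bp1, Rif1 and Ezh2 were thus shared by many genes, and those of the pumps and of Mad2l2 by few.

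Counts were fewest for Abcb1a. Abcb1a had 209 to 411 counts per library, a counting error of 6.92 to 4.93%, Abcb1b 604 to 1210, and Mad2l2 621 to 924. Trp53bp1 had 2227 to 3892 counts and an error of 2.12 to 1.60%. The SD within a group was 5.57 to 22.4% of the mean for Abcb1a and 2.81 to 11.1% for Trp53bp1. Counting error covers the sampling of reads alone.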

How the data were processed

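Per the submitters' processing notes, the authors used STAR, HTSeq and the build GRCm38; versions, annotation release, strand setting and read length are not given in the sources used here. The deposited count table holds whole-number counts per gene, not normalized. The other deposited table gives log2(RPKM + 1), as computed by the authors. Per the labels' protocols, the libraries were stranded and made with a depletion step.

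Counts of all 20 libraries were fitted in R 4.3.3 with edgeR 4.0.16 (quasi-likelihood test, TMM scaling, 1 coefficient per group, no covariate). Of 55406 genes, 18144 passed filterByExpr (minimum count 10, minimum total 15). TMM factors ran from 0.958 to 1.03. CPM uses these effective library sizes, and SE is the absolute log2 fold change over the square root of F. A gene was called at a Benjamini-Hochberg adjusted p under 0.05 over all tested genes. The model gave 13 contrasts and a test across groups. Positions and exon lengths are from GENCODE M21, which held 55227 of the identifiers. Sequences came from the reference transcripts and the RefSeq promoter table. The longest open reading frame that starts with ATG was taken as coding sequence. The fit was tested on simulated data.

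All members are named. From each list up to 4 genes with the smallest p across groups may be named, and 3 most similar genes per member. The members, lists and tests were chosen with earlier results of these data known. Of 206 list symbols 204 matched. Replicates are read as animals from the titles, and p-values measure the spread between these samples. Alternatives were DESeq2 1.42.0 and its size factors, no filter, a replicate block, the compared groups alone, limma 3.58.1 on the deposited log2 values, each library left out in turn, and a fit without 4 libraries with a mean acinar level over 2 log2 CPM.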

Additional observations from a re-analysis of the deposited data

How the results depend on the processing

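Counts of members that passed were 1 in the full combination, 1 with PARPi+ICB, 0 in the pooled olaparib comparison, 0 for PARPi+ICB against ICB and 1 across groups. The DESeq2 Wald test (likelihood ratio test across groups) gave 2 in the full combination, 2 in the pooled olaparib comparison and 3 across groups. Of 18107 genes it called 4737, 1747 and 5278 there, where edgeR called 4384, 925 and 3747 of 18144. With PARPi+ICB the count was 0 with the size factors of DESeq2, 0 with the compared groups alone and 0 with no filter on low counts. Without the libraries with acinar RNA it was 1 in the pooled olaparib comparison, 1 for PARPi+ICB against ICB and 2 across groups. That fit called 1246, 552 and 3223 of 18336 genes in these comparisons. Leaving out each library in turn gave 1 to 3 in the full combination, 0 to 1 with PARPi+ICB, 0 to 1 in the pooled olaparib comparison, 0 to 1 for PARPi+ICB against ICB and 0 to 2 across groups. In that step a group of 3 keeps 2 libraries, and spread is shared over groups. Calls among all genes then ran from 2877 to 4143 in the full combination and from 1335 to 2596 with PARPi+ICB. They ran from 361 to 1215 in the pooled olaparib comparison, 1 to 492 for PARPi+ICB against ICB and 2743 to 3856 across groups. The genes tested numbered 18084 to 18583.

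The labels state no pairing of samples by replicate number. Of 46 same-numbered pairs in different groups 8 had a correlation of deviations over 0.1 (range -0.316 to 0.244), and 6 of 20 libraries were closest to their own number. These values show no clear pairing, but deviations from means of 3 or 4 libraries are too noisy to exclude one. With replicate number as a block, 2 members passed in the full combination, the added one being Rif1 (-0.50, adjusted p = 0.0319). Of 18144 genes 4142 passed in that fit. For Trp53bp1 with PARPi+ICB the adjusted p was 0.0501 with the size factors of DESeq2, 0.104 with the compared groups alone and 0.0802 with no filter.

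Differences near 0 that did not pass changed sign. Mad2l2 in the full combination (-0.01) was 0.00279 by DESeq2, 0.00357 with its size factors and 0.00328 with no filter. Rif1 in the pooled olaparib comparison was 0.00477 by DESeq2, 0.00473 with its size factors, 0.00348 with the compared groups alone, 0.00548 with no filter and 0.0302 without the libraries with acinar RNA, where Dynll1 in the full combination was -0.0345 and Ezh2 0.00174. With single libraries left out, values against control ran from -0.18 to 0.13 for Abcb1a and -0.31 to 0.12 for Abcb1b with ICB; for Dynll1 from -0.134 to 0.0383 (PARPi), -0.125 to 0.0431 (PARPi+ICB), -0.0535 to 0.117 (PARPi+anti-VEGFA) and -0.0448 to 0.119 (full combination); for Ezh2 from -0.10 to 0.14 with PARPi+ICB and -0.0765 to 0.0391 in the full combination; for Mad2l2 from -0.0434 to 0.0254 in the full combination; and for Rif1 from -0.10 to 0.12 with PARPi and -0.0638 to 0.0645 in the pooled olaparib comparison. The log2 ratio of Abcb1b to Abcb1a against control ran from -0.20 to 0.12 with ICB, -0.0608 to 0.162 with PARPi and -0.0575 to 0.0435 with PARPi+ICB, and in the full combination it was -0.12; the difference of deposited log2(RPKM + 1) values was 0.0144, which is no log2 ratio, since 1 is added to values this low. The cause of the other changes was not tested. Low counts limit Abcb1a most.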
